A study of Mus musculus with 50 samples.

Results

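The Schlafen genes are a family of immune genes that lie side by side in the mouse genome, and their RNA was read in mouse sarcomas treated with radiation and an antibody against the checkpoint receptor PD-1. The 7 members were Slfn1, Slfn2, Slfn3, Slfn4, Slfn5, Slfn8 and Slfn9, out of 37469 genes in the count table, and all 7 passed the filter on low counts that left 19327 genes for testing. The family was singled out because a rise of Slfn4 after radiation in primary tumors given the isotype antibody was already known, so values of that comparison are given as a description and carry no test.

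The tumors were p53/MCA sarcomas of 129/SvJae mice. Primary tumors arose in the hind limb, in the gastrocnemius, in Trp53 fl/fl animals aged 6 to 10 weeks, after injection of Adeno-Cre, an adenovirus that carries the Cre recombinase and deletes Trp53 at the site, and of 300 µg of the carcinogen 3-methylcholanthrene (MCA). Transplant tumors grew from 50000 cells of 402230, a cell line with a parental tumor also named in the labels, placed in the same muscle of syngeneic mice, so that all transplants share 1 line. Each mouse was given 200 µg of muDX400, the murine anti-PD-1 antibody, or an isotype control, then 0 or 20 Gy to the hind limb, and tumors were taken 3 days later. There were 8 primary and 4 transplant libraries per treatment, 48 in all, and 2 further libraries of 402230 without replicates.

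Between 31810461 and 54008259 reads were counted per tumor. The sample titles carry a number that differs from tumor to tumor, and the paper plots each of its tumors as a separate mouse. The p-values measure the spread between these tumors, which in transplants is a spread between tumors of the same line. The 2 libraries of 402230 went against their labels: the library labelled as the parental tumor had 0 counts of the macrophage gene Adgre1 and 0.112 CPM (read counts scaled to a common library total) of the leukocyte gene Ptprc, while the library labelled as the cell line had 60.5 and 81.9 CPM. They entered no comparison and are described last.

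Schlafen proteins are grouped by length. The short members, Slfn1 and Slfn2, are known for holding T cells in a resting state, and Slfn2 is needed for the survival of resting T cells and monocytes. The intermediate members, Slfn3 and Slfn4, add a linker region, and Slfn4 is known as a gene of myeloid cells that type I interferon induces. The long members, Slfn5, Slfn8 and Slfn9, carry a helicase-like part as well. Many members are induced by type I interferon, which binds the receptor made of Ifnar1 and Ifnar2 and acts through signal transducers, Stat2 and Irf9 among them, on a promoter sequence called the interferon-stimulated response element (ISRE).

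All 7 genes lie on chromosome 11 (GRCm38, also called mm10), within the stretch from 82951349 to 83215154. In order along the chromosome they are Slfn5 (chr11:82951349-82964840, + strand, ENSMUSG00000054404), Slfn9 (chr11:82978390-82991830, - strand, ENSMUSG00000069793) and Slfn8 (chr11:83002158-83020810, - strand, ENSMUSG00000035208). Then come Slfn2 (chr11:83065112-83070678, + strand, ENSMUSG00000072620), Slfn1 (chr11:83116849-83122670, + strand, ENSMUSG00000078763), Slfn4 (chr11:83175186-83190216, + strand, ENSMUSG00000000204) and Slfn3 (chr11:83191330-83215154, + strand, ENSMUSG00000018986). The pseudogene Slfn10-ps lies between Slfn8 and Slfn2, and Slfn14 lies beyond Slfn3. The coding sequence is 1011 bases in Slfn1 and 1134 in Slfn2, 1920 in Slfn3 and 1806 in Slfn4, and 2652 in Slfn5 and 2730 in both Slfn8 and Slfn9.

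Close pairs among the members bear on how well their reads can be told apart. Coding sequences of Slfn8 and Slfn9 were 92.7% identical, and those of Slfn3 and Slfn4 were 91.6% identical over 1779 aligned positions, with a longest shared run of 95 bases. All other pairs of members lay between 54.9 and 73.1%. Of all 50-base windows in its transcripts, Slfn8 shared 14.6% with another family gene, Slfn9 11.2%, Slfn4 8.15%, Slfn3 7.39%, Slfn2 4.27%, Slfn1 0.606% and Slfn5 0%. For windows of 100 bases the shares were 3.38% in Slfn8, 3.71% in Slfn9, 0.0493% in Slfn4 and 0% in Slfn3, and for windows of 150 bases 1.46% in Slfn9 and 0% in the other 6. The gene that shared most windows of 50 bases with Slfn8 (423 of 610) and with Slfn9 (483 of 670) was the pseudogene Slfn10-ps. Reads that fall wholly in shared windows cannot be assigned to a gene with certainty, and the shared part shrinks with the length of sequence read. Before trimming, the reads were paired and about as long as the longest of these windows, as the authors state. The pairs are shown over 90 coding bases of GENCODE transcripts (GRCm38), with bases that differ within a pair in capitals: bases 1 to 90 of Slfn8 and Slfn9, where 15 differ, and bases 240 to 329 of Slfn3 beside the aligned bases of Slfn4, where 13 differ.
Slfn8: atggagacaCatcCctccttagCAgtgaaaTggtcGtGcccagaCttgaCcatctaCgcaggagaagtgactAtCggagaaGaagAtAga
Slfn9: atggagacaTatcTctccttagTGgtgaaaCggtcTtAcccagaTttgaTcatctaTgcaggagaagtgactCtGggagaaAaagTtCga
Slfn3: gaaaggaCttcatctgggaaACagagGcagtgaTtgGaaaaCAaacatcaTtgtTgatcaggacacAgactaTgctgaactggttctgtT
Slfn4: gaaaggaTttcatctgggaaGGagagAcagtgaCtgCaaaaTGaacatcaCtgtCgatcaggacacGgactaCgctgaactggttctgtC

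The promoters were searched because the members moved together after radiation. The window ran from 250 bases before to 50 after each RefSeq start (GRCm38.p6). The core of the ISRE, searched as GAAANNGAAA on both strands, matched in the long members Slfn5, Slfn8 and Slfn9 and in none of the windows of Slfn1, Slfn2, Slfn3 and Slfn4. It matched in 3.44% of 32851 promoters. Only full matches were counted, and near matches were not searched for. The window of Slfn1 held AAAACTGAAA, which differs from the core only in the first base. The related element GAS, searched as TTCNNNGAA on both strands, matched in none of the 7 members and in 8.3% of promoters. In Slfn5 the base of the match nearest to the start lay 146 bases before it. In Slfn8 and Slfn9, whose 120 bases before the start were 89.7% identical, the match was on the opposite strand and its nearest base lay 39 and 36 bases before the start, in the stretches chr11:83020834-83020873 and chr11:82991851-82991890 (both - strand), where capitals mark the match.
Slfn8 promoter: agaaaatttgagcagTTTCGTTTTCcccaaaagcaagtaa
Slfn9 promoter: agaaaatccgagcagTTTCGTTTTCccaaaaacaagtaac

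Slfn1, Slfn2 and Slfn4 shared another run of 11 bases, ACTTCCTGGAG, which began 74, 55 and 73 bases before the start and stood in 24 of 32851 promoters (0.0731%). This run was picked after the sequences were seen, and Slfn3 was left out of the search. The window of Slfn3 held the near match ACTTCCTGGGG, which differs from the run only in the last base but one. The 120 bases before each start are shown with the run in capitals (+ strand): Slfn1 chr11:83116700-83116819, Slfn2 chr11:83064992-83065111 and Slfn4 chr11:83175066-83175185. A match is a description of letters in these windows.
Slfn1 promoter: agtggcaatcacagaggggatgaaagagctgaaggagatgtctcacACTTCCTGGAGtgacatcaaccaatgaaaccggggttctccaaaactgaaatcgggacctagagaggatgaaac
Slfn2 promoter: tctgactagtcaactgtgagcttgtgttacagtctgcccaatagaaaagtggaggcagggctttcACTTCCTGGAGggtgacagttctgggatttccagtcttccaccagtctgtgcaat
Slfn4 promoter: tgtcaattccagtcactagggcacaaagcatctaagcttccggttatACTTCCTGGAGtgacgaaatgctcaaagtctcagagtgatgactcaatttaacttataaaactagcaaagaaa

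Levels of the members were set in order per length, as CPM per kilobase of exon, where CPM divides counts by the library total after edgeR's TMM scaling. Over the 24 tumors at 0 Gy, of all groups together, Slfn2 stood highest at 41.8 ± 22.0 (SD), followed by Slfn5 at 15.7 ± 5.91, Slfn1 at 10.2 ± 7.19, Slfn9 at 6.84 ± 1.79 and Slfn4 at 5.03 ± 6.07. Slfn8 at 1.63 ± 0.502 and Slfn3 at 1.04 ± 0.791 stood lowest. Of neighbours in this order, Slfn2 and Slfn5 differed by more than the larger of their SDs, and the others did not. Over the 24 tumors at 20 Gy the order was Slfn2 (148 ± 63.2), Slfn4 (63.8 ± 44.8), Slfn1 (54.6 ± 16.7), Slfn5 (47.5 ± 12.0), Slfn9 (13.3 ± 3.65), Slfn8 (5.08 ± 1.26) and Slfn3 (1.49 ± 0.519). Slfn4, Slfn1 and Slfn5 differed by less than their spread, and their order was not the same in every group: in irradiated transplants given isotype Slfn4 stood at 40.9 CPM per kilobase, below Slfn5 (52.1) and Slfn1 (50.02). The pooled order includes the primary tumors given isotype.

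**Figure D1:**
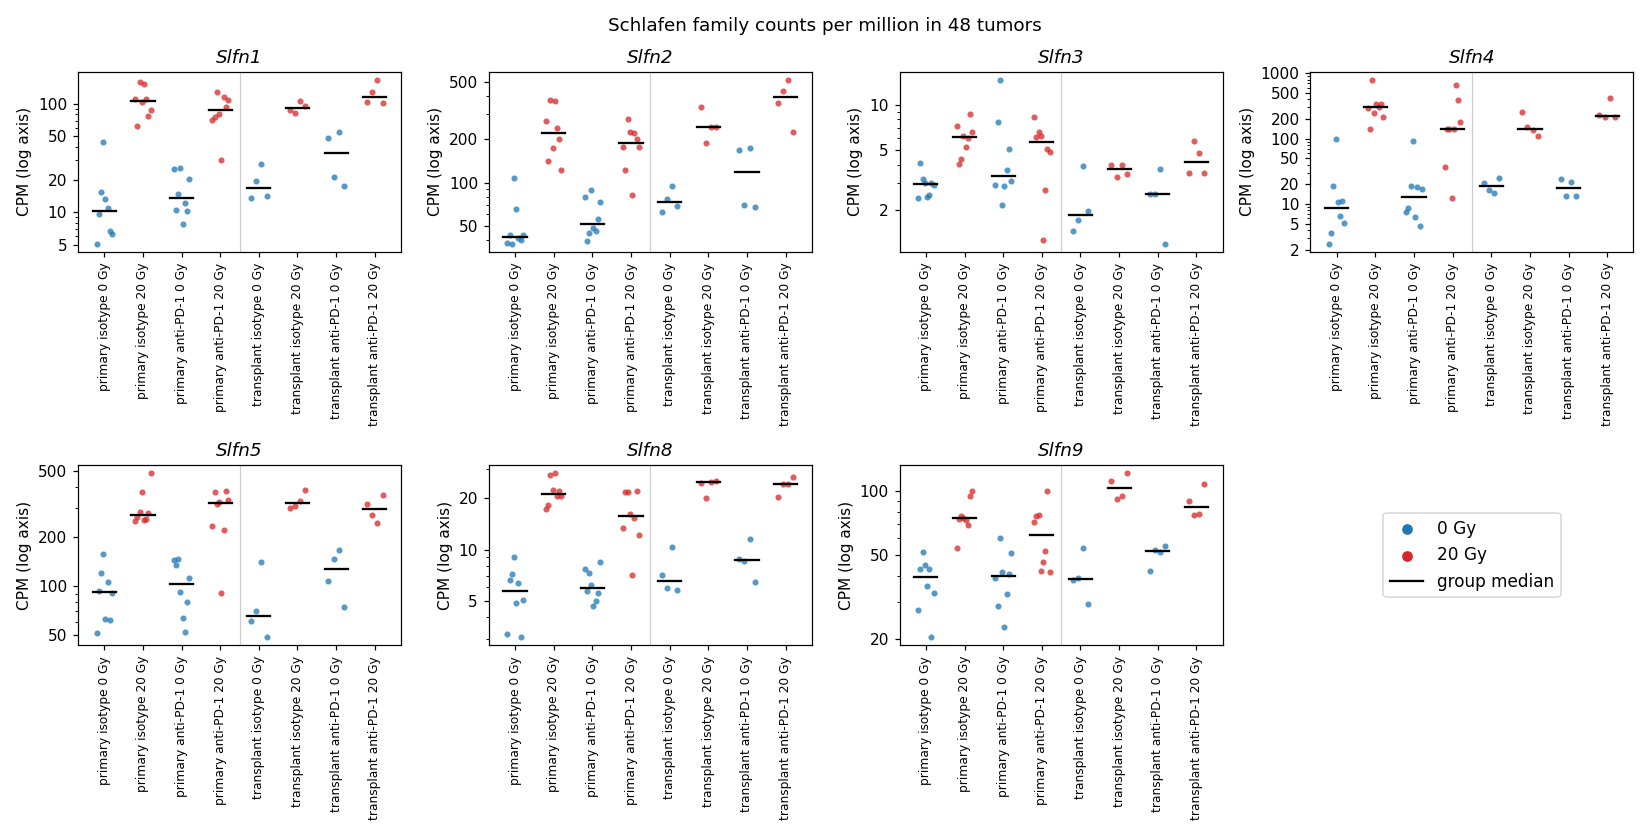
CPM (log axis, its own range for each gene) of the 7 Schlafen genes in 48 tumors by group, with 0 Gy in blue and 20 Gy in red, a point per tumor and the group median as a line. Medians at 20 Gy lie above those at 0 Gy for each gene in each of the 4 pairs of groups, most widely for Slfn4, which reached 786 CPM, and Slfn3 stays between 1.19 and 14.6 CPM in all tumors.

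In primary tumors given the isotype antibody, the comparison known beforehand, all 7 members had higher mean CPM at 20 Gy. Slfn4 ran from 2.46 to 99.6 CPM at 0 Gy (median 8.62, n = 8) and reached 786 at 20 Gy (median 300.5, n = 8), with a log2 fold change of 4.07 (SE 0.61). The log2 fold change was 2.95 for Slfn1, 2.19 for Slfn2, 1.03 for Slfn3, 1.72 for Slfn5, 1.96 for Slfn8 and 1.04 for Slfn9. All 8 irradiated tumors lay above all 8 others for each member but Slfn3, where 7 did. Such separation upward was seen in 1.45% of the 19327 genes, and 9.19% passed an adjusted p of 0.05 upward. The unirradiated tumor replicate 4 stood high for several members, at 99.6 CPM of Slfn4, 44.9 of Slfn1 and 157 of Slfn5, and 25 type I interferon-stimulated genes summed to 5205 CPM in it, the highest of its group, whose lowest was 596.9 CPM.

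Whether radiation raised the family in the presence of anti-PD-1 was tested in the primary tumors given that antibody. These are other tumors than those in which the rise of Slfn4 was known, though the family was chosen with earlier results of the series known. Of the 7 members, 6 rose at 20 Gy (edgeR's quasi-likelihood test, Benjamini-Hochberg adjusted over 19327 genes), against 7.92% of all genes. Slfn3 was the exception, and the count was 6 without any of the 16 libraries in turn. The median log2 fold change of the 7 was 1.46 and that of all genes 0.02. Whole tumors were sequenced, so that more cells of a type and more RNA per cell cannot be told apart here or below.

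Among the short members, Slfn1 ran from 7.74 to 25.5 CPM at 0 Gy (median 13.4, n = 8) and from 30.3 to 129.8 at 20 Gy (median 87.3, n = 8). It was the member whose groups did not overlap, as held upward for 0.279% of genes, and it rose by a log2 fold change of 2.48 (SE 0.33, adjusted p 1.82e-05). Slfn2 ran from 39.5 to 88.6 CPM and from 81.9 to 277 (medians 51.8 and 189.5), with 7 of 8 irradiated tumors above all others and a log2 fold change of 1.64 (SE 0.26, adjusted p 8.11e-05). The irradiated tumor replicate 5 held the lowest value of both genes. That tumor also had the lowest summed level of 4 leukocyte markers (372.3 CPM) and of 10 macrophage markers (848.2 CPM) among the 48 tumors, and the part of these cells in the result was not tested.

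The intermediate members went separate ways. Slfn4 ran from 4.59 to 90.4 CPM at 0 Gy (median 12.8, mean 21.4 ± 28.4) and from 12.3 to 656 at 20 Gy (mean 212 ± 213), and 6 of 8 irradiated tumors lay above all 8 others. It rose by a log2 fold change of 3.31 (SE 0.61, adjusted p 0.00109), the largest of the family. The highest unirradiated tumor, replicate 4, held 90.4 CPM, and without it the log2 fold change was 4.20 (adjusted p 7.99e-05). The irradiated tumor with 12.3 CPM, replicate 4, had the highest summed skeletal muscle level of the 48 tumors (71660 CPM). Slfn3 ran from 2.17 to 14.6 CPM at 0 Gy (median 3.39) and from 1.27 to 8.26 at 20 Gy (median 5.62). Its groups lay across each other, the log2 fold change was -0.04 (SE 0.31, adjusted p 0.96), and the sign depended on the library: it was 0.38 without the unirradiated replicate 3, which held the highest value. Without the unirradiated replicate 2 or the irradiated replicates 5 or 6 it was 0.06, 0.13 and 0.07.

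All long members rose. Slfn5, the most counted of the family, ran from 52.3 to 147 CPM at 0 Gy (median 102.2) and from 90.2 to 378 at 20 Gy (median 319), with a log2 fold change of 1.46 (SE 0.25, adjusted p 0.000185). Slfn8 ran from 4.68 to 8.42 CPM and from 7.14 to 22.1 (medians 5.95 and 15.8), with a log2 fold change of 1.36 (SE 0.19, adjusted p 3.38e-05). For both genes 7 of 8 irradiated tumors lay above all others, and the eighth was again replicate 5. Slfn9 ran from 22.9 to 60.0 CPM and from 41.7 to 100.8 (medians 39.8 and 62.1). Its groups overlapped most among the members that rose, with 4 of 8 irradiated tumors above all others, and its log2 fold change was 0.68 (SE 0.18, adjusted p 0.0114). In a fit of these groups alone the adjusted p of Slfn9 was 0.0844.

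In transplants given the isotype antibody, 5 of 7 members rose at 20 Gy, against 1.82% of all genes. For 6 of 7, all but Slfn3, all 4 irradiated tumors lay above the other 4, which held upward for 9.03% of genes. The median log2 fold change of the 7 was 1.75 and that of all genes -0.03.

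Slfn1 held 13.4, 19.3, 27.8 and 13.9 CPM at 0 Gy and 87.4, 82.9, 106.9 and 95.8 at 20 Gy, a rise by a log2 fold change of 2.33 (SE 0.46, adjusted p 0.00536). Slfn2 held 62.1, 76.8, 94.4 and 68.6 CPM and, irradiated, 338, 188, 245 and 243, a rise by 1.75 (SE 0.36, adjusted p 0.007; without the unirradiated replicate 1, adjusted p 0.0504). Both short genes were thus higher in each irradiated transplant than in any unirradiated one of this antibody. Slfn4 held 20.9, 16.5, 14.5 and 24.9 CPM at 0 Gy and 254, 150, 133.8 and 109.9 at 20 Gy. Its groups were far apart, but the log2 fold change of 3.08 had an SE of 0.87 in the fit over all 8 groups and did not pass (adjusted p 0.077). It passed with DESeq2 (adjusted p 0.0122), limma voom (0.0271), a fit of these groups alone (0.00355) and with close members summed (0.0442). Slfn3 held 1.46, 1.72, 3.92 and 1.97 CPM and 3.97, 3.33, 3.97 and 3.47, a log2 fold change of 0.70 (adjusted p 0.572).

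Slfn5 held 61.0, 70.8, 139.8 and 48.9 CPM at 0 Gy and 299, 308, 330 and 382 at 20 Gy, a rise by a log2 fold change of 2.04 (SE 0.35, adjusted p 0.00186). Slfn8 held 7.09, 5.96, 10.3 and 5.76 CPM and 24.7, 20.2, 25.2 and 25.3, a rise by 1.71 (SE 0.27, adjusted p 0.00101). Slfn9 held 38.3, 38.9, 54.3 and 29.4 CPM and 112.2, 92.0, 94.7 and 121.8, a rise by 1.39 (SE 0.26, adjusted p 0.00279). The unirradiated replicate 3 was the highest of its group for all 3 long genes.

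In transplants given anti-PD-1, 3 of 7 members passed (Slfn2, Slfn4 and Slfn8), against 0.538% of all genes. All 4 irradiated tumors again lay above the other 4 for each member but Slfn3, as held upward for 5.63% of genes. Slfn4 held 24.2, 13.4, 21.5 and 13.4 CPM at 0 Gy and 227, 217, 420 and 210 at 20 Gy, a rise by a log2 fold change of 3.89 (SE 0.87, adjusted p 0.0482). Slfn2 held 168, 69.4, 173 and 67.5 CPM and 357, 433, 517 and 225, a rise by 1.68 (SE 0.36, adjusted p 0.0274). Slfn8 held 8.76, 8.56, 11.5 and 6.47 CPM and 20.5, 24.5, 24.2 and 26.8, a rise by 1.44 (SE 0.27, adjusted p 0.00805). The irradiated tumors of all 3 genes were the higher ones without overlap.

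The other members had log2 fold changes of the same sign. Slfn1 held 48.7, 20.9, 55.1 and 17.5 CPM at 0 Gy and 103.2, 128.9, 166 and 101.5 at 20 Gy (log2 fold change 1.81, adjusted p 0.0583). Slfn5 held 107.5, 146, 166 and 74.7 CPM and 318, 272, 241 and 358 (1.27, adjusted p 0.0708). Slfn9 held 42.1, 53.1, 51.8 and 55.2 CPM and 90.2, 77.7, 78.4 and 108.6 (0.81, adjusted p 0.121). These did not overlap between doses either. Slfn3 held 2.54, 2.56, 3.76 and 1.19 CPM and 3.53, 5.77, 4.75 and 3.50 (0.80, adjusted p 0.435).

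The calls with anti-PD-1 in transplants rested on few libraries. The count fell from 3 to 0 without the unirradiated replicate 4 and to 1 without the unirradiated replicates 1 or 2 or the irradiated replicates 2 or 3. Slfn4 passed without the irradiated replicate 4 and with none of the other 7 libraries left out (adjusted p up to 0.287). Slfn2 was lost without the unirradiated replicates 2 (adjusted p 0.136) or 4 (0.249) or the irradiated replicates 2 (0.0586) or 3 (0.0979), and Slfn8 without the unirradiated replicates 1 (0.0527) or 4 (0.11). Slfn1 passed without the irradiated replicate 4 (0.0474). With DESeq2 the count was 5 and in a fit of these groups alone 1. With Slfn8, Slfn9 and the pseudogene Slfn10-ps summed the log2 fold change was 0.94 (adjusted p 0.0518).

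Averaged over both antibodies, radiation raised 6 of 7 members in transplants, against 5.85% of all genes, and this count too was 6 without any of the 16 libraries in turn. The log2 fold change was 3.48 for Slfn4 (SE 0.61, adjusted p 0.000496), 2.07 for Slfn1, 1.71 for Slfn2, 1.65 for Slfn5, 1.58 for Slfn8 and 1.10 for Slfn9, with adjusted p-values from 1.58e-06 to 0.000105 for the last 5. For Slfn3 it was 0.75 (SE 0.31, adjusted p 0.147).

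**Figure D2:**
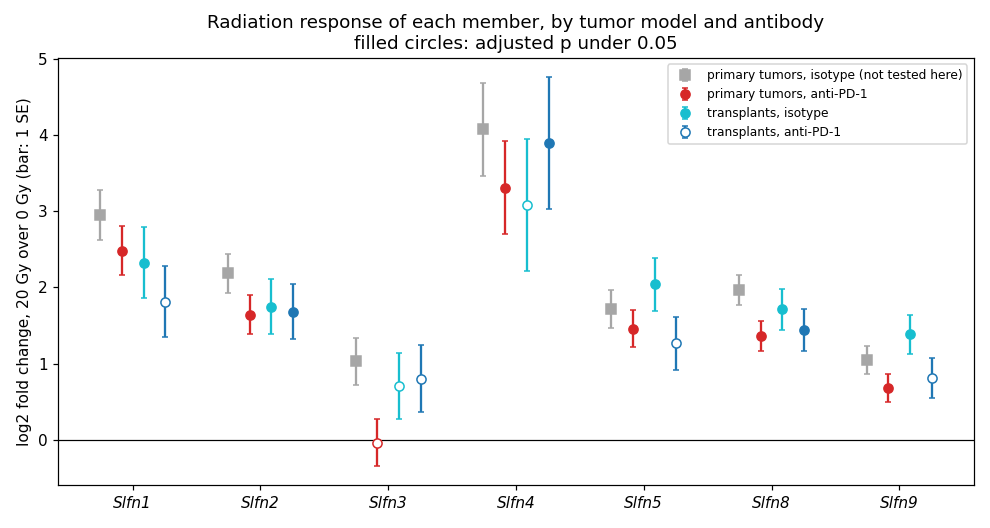
Log2 fold change of radiation (20 against 0 Gy) with its SE for each Schlafen gene in primary tumors (8 against 8) and transplants (4 against 4) under each antibody. Slfn4 has the largest value in all 4 comparisons, from 3.08 to 4.07, and Slfn3 the smallest, from -0.04 to 1.03; filled circles passed an adjusted p of 0.05, and squares, for primary tumors given isotype, were not tested.

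The family total shows the same shift. The 7 genes summed to 250.7 ± 70.3 CPM (SD, n = 8) at 0 Gy and 853 ± 293 at 20 Gy in primary tumors given anti-PD-1. In transplants the sums were 243 ± 69.6 and 971 ± 113.6 with isotype (n = 4 each). With anti-PD-1 they ran from 235.9 to 482.7 CPM at 0 Gy and from 1034 to 1451 CPM at 20 Gy (n = 4 each). Slfn4 made up 7.67% of the sum at 0 Gy and 22.5% at 20 Gy in primary tumors given anti-PD-1. In transplants its share went from 8.61 to 16.5% with isotype and from 5.10 to 22.1% with anti-PD-1, while Slfn9 went from 16.7 to 10.9% and from 15.4 to 7.67%. Slfn5 and Slfn2 together held most of the sum at 0 Gy.

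Of the other genes of the name, 2 passed the filter, Slfn10-ps and Slfn5os. The pseudogene Slfn10-ps, which shares 19.7% of its 50-base windows with other family genes, rose in primary tumors given anti-PD-1 by a log2 fold change of 1.23 (adjusted p 0.000823), from 4.88 ± 2.14 to 11.4 ± 3.75 CPM, and in transplants given isotype by 1.45 (adjusted p 0.0167). In transplants given anti-PD-1 its log2 fold change was 1.11 (adjusted p 0.105). Slfn14 was at most 0.0801 CPM in the primary tumors and reached 2.70 CPM in 1 transplant, and Slfn14 and Slfnl1, a distant relative on chromosome 4, did not pass the filter. Slfn5os, an antisense RNA that overlaps Slfn5, reached at most 0.346 CPM in any tumor. The libraries were made with a stranded kit, but the strand setting of the counting is not given in the sources used here, so its reads and those of Slfn5 cannot be told apart with certainty.

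Whether the members of a close pair moved alike was asked of the log2 ratio of their CPM within each tumor, a test added after the values were seen. It restates the separate changes of both members in the same tumors and is no further evidence of them. The ratio of Slfn4 to Slfn3 rose from 1.52 ± 1.69 (SD, n = 8) to 4.61 ± 2.23 in primary tumors given anti-PD-1, where 3 of 8 irradiated tumors lay above all others (exact two-sided permutation p 0.0113). In transplants it rose from 2.88 ± 0.77 to 5.21 ± 0.47 with isotype and from 2.65 ± 0.44 to 5.74 ± 0.50 with anti-PD-1 (n = 4 each; exact permutation p 0.0286 for both, the smallest that 4 against 4 allows). The irradiated transplants had the higher ratios without overlap.

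The ratio of Slfn8 to Slfn9 shifted less. It went from -2.53 ± 0.28 to -1.95 ± 0.41 in primary tumors given anti-PD-1, with 6 of 8 irradiated tumors above all others (n = 8 each; exact permutation p 0.0073). In transplants the differences were 0.28 with isotype and 0.62 with anti-PD-1, both without overlap (n = 4 each; exact permutation p 0.0286). Adjusted over these 6 tests, each p was 0.0286. In primary tumors given isotype the differences, not tested, were 3.95 for Slfn4 to Slfn3 and 0.87 for Slfn8 to Slfn9. How reads shared within a pair bear on these ratios was not tested.

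**Figure D3:**
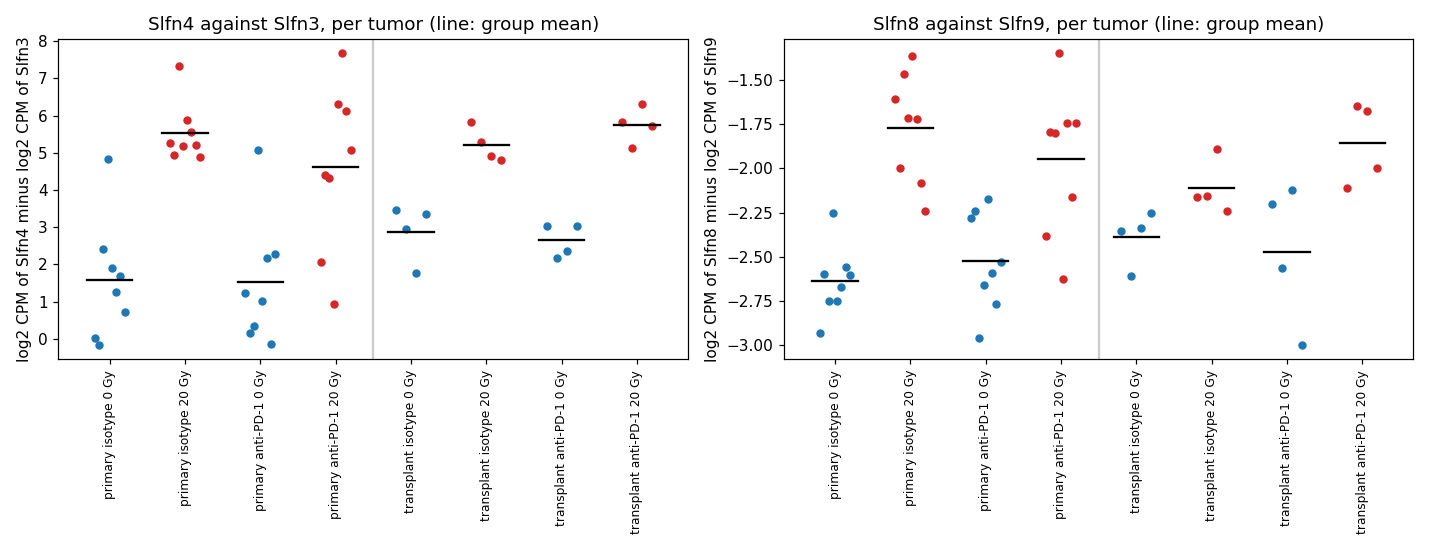
Log2 CPM of Slfn4 minus Slfn3 (left) and of Slfn8 minus Slfn9 (right) in each tumor, with 0 Gy in blue, 20 Gy in red and group means as lines. Irradiated groups have the higher mean in all 4 settings of both pairs, by 2.33 to 3.95 for the left pair and 0.28 to 0.87 for the right pair.

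No member passed between anti-PD-1 and isotype at either dose in either model by edgeR. No gene of the 19327 did either in these 4 comparisons (0.0%). Genes with an unadjusted p under 0.05 made up 3.66% and 10.1% in primary tumors at 0 and 20 Gy and 0.678% and 2.65% in transplants, and no member passed with DESeq2 or limma voom. The primary tumors given isotype are those in which the rise of Slfn4 was known. Values and p-values against them are therefore not independent of the choice of the family. Among the members 2 unadjusted values were under 0.05. Slfn3 in unirradiated primary tumors averaged 5.27 ± 4.16 CPM with anti-PD-1 and 2.96 ± 0.56 with isotype (n = 8 each; log2 fold change 0.83, edgeR p 0.00999, adjusted p 1). Slfn8 in irradiated primary tumors averaged 16.2 ± 5.40 with anti-PD-1 and 22.2 ± 3.90 CPM with isotype (log2 fold change -0.45, edgeR p 0.0244, adjusted p 0.438). In unirradiated transplants 6 of 7 log2 fold changes were positive. They ran from -0.08 (SE 0.87) for Slfn4 to 0.93 (SE 0.46, edgeR p 0.0515) for Slfn1. In irradiated transplants 5 of 7 were positive, from -0.245 (SE 0.257) for Slfn9 to 0.73 (SE 0.863) for Slfn4. With SEs of this size, these comparisons do not decide whether the members changed.

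Under anti-PD-1, the only member that passed between transplant and primary tumors at either dose was Slfn2. It averaged 119.5 ± 59.0 CPM in unirradiated transplants (n = 4) and 59.5 ± 18.5 in primary tumors (n = 8), higher by a log2 fold change of 1.01 (SE 0.31, adjusted p 0.0336), against 3.39% of all genes higher. At 20 Gy it averaged 383 ± 123.8 and 185 ± 61.2 CPM, higher by 1.05 (SE 0.31, adjusted p 0.0314), against 3.04% of genes. The individual values overlapped between models. The call at 0 Gy was lost without the transplant replicates 1 or 3 or the primary replicates 2, 3, 5, 6 or 7 (adjusted p 0.0567 to 0.209), and the call at 20 Gy without the transplant replicates 1, 2 or 3 or the primary replicates 2, 5 or 8 (0.0544 to 0.191). A fit of the compared groups alone gave adjusted p-values of 0.0604 and 0.149. Other members differed by as much at 0 Gy without passing. The log2 fold change was 1.18 for Slfn1 (SE 0.40, adjusted p 0.053, with DESeq2 0.0462) and -1.07 for Slfn3 (SE 0.38, adjusted p 0.0885). Beside Slfn2, of 4 leukocyte markers none passed at 0 Gy (median log2 fold change 0.67) and 3 were higher in transplants at 20 Gy (1.09). Of 6 monocyte markers 2 and 1 were higher (medians 1.019 and 1.15), of 10 neutrophil markers 3 and 0 (2.28 and -0.79), of 8 NK and cytotoxic markers 2 and 1 (1.67 and 1.05), and of 10 macrophage and 9 T cell markers none passed (0.22 and 0.26, and 1.34 and 1.23). Leukocyte markers summed to between 517.0 and 1192 CPM in unirradiated transplants and 447.8 and 740.9 in primary tumors, and at 20 Gy to between 1666 and 2215 and between 372.3 and 1804. The part of these cells in the difference was not tested.

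No member passed between models under isotype, where 10.3% of genes at 0 Gy and 4.87% at 20 Gy differed in either direction. Slfn3 at 20 Gy averaged 3.69 ± 0.33 CPM in transplants and 6.04 ± 1.53 in primary tumors, and all 4 transplants lay below all 8 primary tumors, as held for 2.33% of genes (log2 fold change -0.71, adjusted p 0.32). Slfn4 there averaged 162 ± 63.4 and 332 ± 196 CPM (log2 fold change -1.04, SE 0.75, adjusted p 0.505). The primary tumors of this paragraph are those in which the rise of Slfn4 was known. A high Slfn4 in the irradiated ones is part of that choice, so comparisons with them are not independent of it.

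The effect of radiation was not shown to differ between models or antibodies. Under anti-PD-1, the log2 fold change in transplants minus that in primary tumors ran over the members from -0.67 (SE 0.57) for Slfn1 to 0.84 (SE 0.53) for Slfn3. In transplants, the log2 fold change with anti-PD-1 minus that with isotype ran from -0.77 (SE 0.49) for Slfn5 to 0.81 (SE 1.22) for Slfn4. Every adjusted p of a member was at least 0.991, and 0.0% of genes passed in either comparison.

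The members varied together across tumors of all groups, the difference between doses included. Over the 48 tumors, which share their groups and so are described with no test, Pearson's r of log2 CPM had a median of 0.801 over the 21 pairs. The 15 pairs without Slfn3 ran from 0.739 to 0.955, while pairs with Slfn3 had a median of 0.405. After subtraction of each group's mean the median over 21 pairs was 0.397, with the highest value for Slfn1 and Slfn2 (0.815), followed by Slfn5 and Slfn8 (0.777). The 15 pairs without Slfn3 then reached down to 0.058 for Slfn2 and Slfn9, and Slfn4 and Slfn5 had 0.104. The close pair Slfn8 and Slfn9 had 0.693 and the close pair Slfn3 and Slfn4 -0.191.

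**Figure D4:**
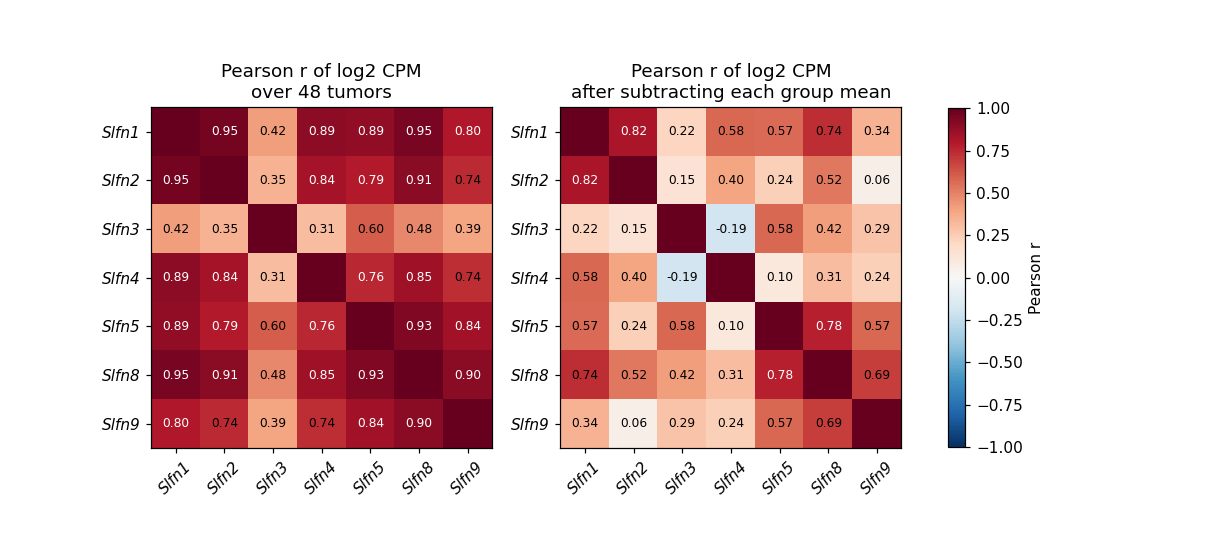
Pearson's r of log2 CPM between Schlafen genes over 48 tumors, before (left) and after (right) subtraction of each group's mean. Slfn3 has the lowest values in its row on the left (0.305 to 0.604), and on the right Slfn1 with Slfn2 is highest (0.815) and Slfn3 with Slfn4 lowest (-0.191).

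Genes outside the family with the most similar pattern over the 48 tumors were named by r, again as a description. For Slfn1 they were Ifi209 (r 0.977), Ifi214 (0.964) and Hsh2d (0.956), and for Slfn2 Ifi209 (0.96), Ms4a4c (0.96) and Lilra6 (0.958). For Slfn4 they were Trim30b (0.944), Ccl7, a chemokine that draws monocytes (0.898), and Herc6 (0.898). For Slfn5 they were Znfx1 (0.959), Oas3, which makes the activator of RNase L (0.953), and H2-T24 (0.951). For Slfn8 they were Uba7, the enzyme that activates Isg15 (0.954), Ifi209 (0.948) and Herc6 (0.942), and for Slfn9 Rnf213 (0.907), Parp11 (0.903) and Parp14 (0.9). Slfn3 had no gene above 0.7, its nearest being Siglec1, a sialic acid receptor of macrophages (0.7), Myo7a (0.685) and Unc5c (0.667). After subtraction of each group's mean the values of the named genes were lower. They then ran from 0.474 (Slfn3 with Unc5c) to 0.928 (Slfn1 with Ifi209), with 0.592 for Slfn4 with Herc6.

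The interferon pathway was read beside the family. Of the 2 of 8 ligand genes that passed the filter, Ifnb1, interferon beta, had a log2 fold change of radiation of 1.73 (adjusted p 0.0967) in primary tumors given anti-PD-1 and rose by 2.98 in transplants over both antibodies (adjusted p 0.00288). For Ifng, interferon gamma, the values were 1.70 (adjusted p 0.11) and 0.65 (adjusted p 0.67). Levels of the ligands were low, so these changes rest on few reads. The 7 ligand genes in the count table had a median sum of 0.337 CPM at 0 Gy and 0.919 at 20 Gy in primary tumors given anti-PD-1. In transplants the median sums were 1.16 and 2.98 CPM with isotype and 3.21 and 4.52 CPM with anti-PD-1. Of 5 receptor genes none passed in primary tumors given anti-PD-1 and 1 rose in transplants over both antibodies, Ifnar2 by 0.46 (adjusted p 0.011). Of 8 signal transducers 7 rose in the former, among them Stat2 by 1.36, and 4 in the latter, among them Stat2 by 1.31. In transplants given isotype 2 rose, Stat2 by 1.61 and Irf9 by 1.15, and with anti-PD-1 none of the 8 passed (median log2 fold change 0.46).

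All 25 type I interferon-stimulated genes rose in primary tumors given anti-PD-1 (median log2 fold change 1.79), in transplants given isotype (2.51) and in transplants over both antibodies (2.25). In transplants given anti-PD-1, 4 of 25 passed (1.96). Among them Irf7, the factor that amplifies type I interferon, rose by 2.17 in primary tumors given anti-PD-1 and by 3.10 in transplants given isotype, and Rsad2, which makes an antiviral nucleotide, by 2.39 and 3.39. The medians of the 7 Schlafen genes were 1.46 and 1.75 in the first and the second of these comparisons.

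Markers of immune cells moved as well. Of 4 markers of all leukocytes, 3 rose at 20 Gy in primary tumors given anti-PD-1 (median log2 fold change 0.89), 2 in transplants given isotype (1.17), none with anti-PD-1 (1.16) and 4 over both antibodies (1.16), where Ptprc rose by 1.51. Summed over the 4, primary tumors given anti-PD-1 ran from 447.8 to 740.9 CPM at 0 Gy and from 372.3 to 1804 at 20 Gy. Transplants ran from 483.7 to 992.3 and from 1262 to 1725 CPM with isotype, and from 517.0 to 1192 and from 1666 to 2215 CPM with anti-PD-1, without overlap between doses. Of 10 macrophage markers 3, 1, 1 and 5 rose in these comparisons, among them Fcgr1, a receptor for antibodies, by 1.25 in the primary tumors and 1.55 in transplants over both antibodies. C1qa and C1qb, the macrophage markers with the highest levels, had 0.64 and 0.47 in the primary tumors, where neither passed. Over both antibodies in transplants C1qa rose by 0.98 and C1qb did not pass (0.77). The sum of the 10 macrophage markers ran from 1608 to 3268 CPM at 0 Gy and from 848.2 to 6084 at 20 Gy in primary tumors given anti-PD-1, from 1717 to 2593 and from 3073 to 4931 in transplants given isotype, and from 1346 to 3371 and from 3107 to 6004 with anti-PD-1. Of 6 monocyte markers 3, 1, 0 and 2 rose, among them Ly6c2 by 2.43 in the primary tumors and 2.26 in transplants over both antibodies. Plac8 and Vcan, the monocyte markers with the highest levels, passed in neither (Plac8 1.195 and 1.94, Vcan 0.57 and -0.24). The sum of the 6 monocyte markers ran from 276.8 to 1153 and from 578.3 to 1741 CPM in primary tumors given anti-PD-1, from 558.9 to 766.6 and from 1268 to 1918 in transplants given isotype, and from 558.9 to 1229 and from 1553 to 3668 with anti-PD-1. The part of these cells in the rise of the Schlafen genes was not tested.

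Of 10 neutrophil markers 3 rose in primary tumors given anti-PD-1 (Mmp8 by 4.91), while in transplants over both antibodies 1 rose (Csf3r by 1.30) and 2 fell (Ngp, log2 fold change -6.57, and Camp, -4.11). Of all genes 1.38% fell in the latter comparison. In transplants given isotype Ngp fell and no marker rose, and with anti-PD-1 none passed. The neutrophil sum in transplants had medians of 167.3 CPM at 0 Gy and 259.9 at 20 Gy with isotype. With anti-PD-1 they were 172.4 and 345.7 CPM. The mean log2 CPM of the 10 went from 3.21 to 2.535 with isotype and from 3.32 to 3.31 with anti-PD-1. Of 8 NK and cytotoxic markers 3 rose in the primary tumors, none in transplants under either antibody and 1 over both. None of 9 T cell, 5 B cell, 5 red blood cell and 9 skeletal muscle markers passed in any of these 4 comparisons, and of 5 endothelial markers 1 rose in transplants over both antibodies. The skeletal muscle markers nevertheless had a median log2 fold change of 2.76 in primary tumors given anti-PD-1, positive for 9 of 9 and with an unadjusted p under 0.05 for 7, and their sum ran from 70.6 to 6914 CPM at 0 Gy and from 12.8 to 71660 at 20 Gy. The part of muscle in the result was not tested.

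The 2 libraries of 402230 had no replicate, and intervals given for them are exact Poisson intervals at 95% that cover counting error only. Here CPM were scaled over all 50 libraries. In the library labelled as the parental tumor, Slfn1 had 0 counts, which allows up to 0.0824 CPM, and Slfn2, Slfn3 and Slfn4 had 2 counts each (0.0447 CPM, 0.00541 to 0.161). Slfn5 stood at 1.23 CPM (0.926 to 1.60) and Slfn8 at 2.95 (2.47 to 3.50). Slfn9 stood apart from all of these at 68.9 CPM (66.5 to 71.4), above the 29.5 to 54.6 CPM of the 4 unirradiated transplants given isotype.

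That library summed to 0.626 CPM over the 4 leukocyte markers and 10.6 CPM over the 10 macrophage markers, where no tumor of the 48 was under 359.2 and 818.3 CPM. Interferon-stimulated genes were counted in it all the same, Isg15 at 101.1 CPM and Irf7 at 52.7 CPM, and the list of 25 summed to 1191 CPM. The library labelled as the cell line held Slfn2 at 37.2 CPM (35.4 to 39.0), Slfn4 at 23.0 (21.7 to 24.5), Slfn5 at 61.9 (59.6 to 64.2), Slfn9 at 32.0 (30.4 to 33.7), Slfn1 at 6.37, Slfn3 at 5.20 and Slfn8 at 3.86. Its leukocyte markers summed to 340.7 CPM. The library labelled as the parental tumor also held little RNA of other host cells. Endothelial markers summed to 1.385 CPM in it, skeletal muscle markers to 3.687 and red blood cell markers to 0.0894. In that library 4 of the 7 members were at 2 counts or fewer, and Slfn9 was higher there than in the other library. The part of any of these cells in the counts was not tested.

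**Figure D5:**
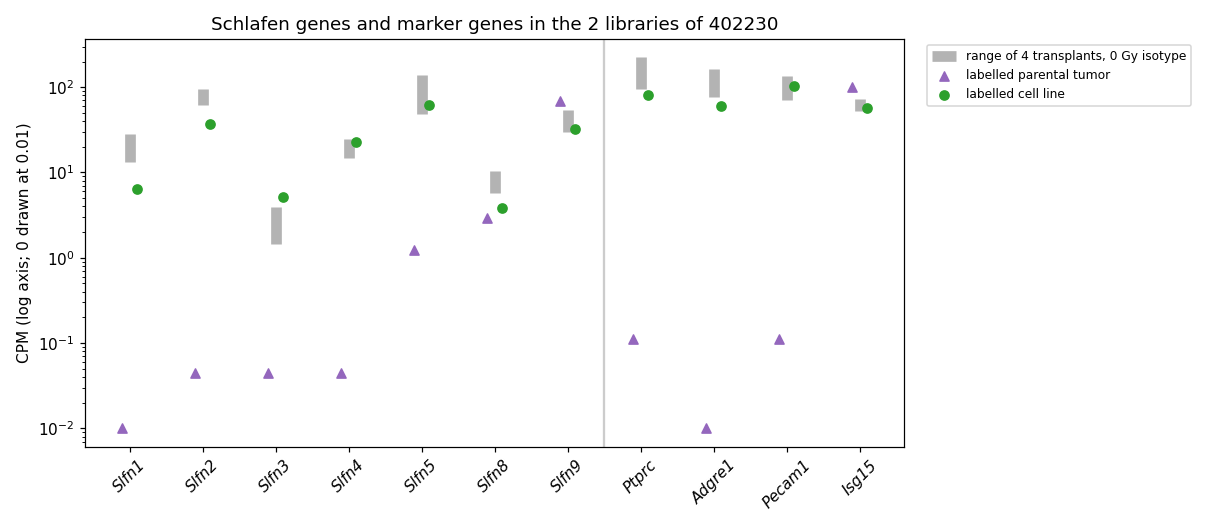
CPM (log axis, 0 drawn at 0.01) of the 7 Schlafen genes and 4 marker genes in the 2 libraries of 402230, with the range of the 4 unirradiated isotype transplants as a grey bar. In the library labelled parental tumor (purple triangles) Slfn1 to Slfn4 and the leukocyte and endothelial markers Ptprc, Adgre1 and Pecam1 lie at or under 0.112 CPM, while Slfn9 reaches 68.9 and Isg15 101.1 CPM.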

How the data were processed

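RNA with a RIN above 7 had been made into stranded, oligo-dT primed libraries. Trimming was by Trimmomatic 0.36 and alignment to mm10 by STAR, and the authors counted reads per gene of GENCODE M17 by the HTSeq method. The values deposited by the authors were raw read counts. Gene names came from GENCODE M21, which named 37408 of 37469 identifiers, and promoter sequences from RefSeq (GRCm38.p6). No pair of libraries of a group agreed within sampling noise.

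Counts were tested with edgeR 4.0.16 (filterByExpr, TMM, quasi-likelihood with robust dispersions), with a mean per group over the 48 tumors, and adjusted by Benjamini-Hochberg over 19327 genes at a threshold of 0.05. Standard errors are of Wald type. Log2 CPM are log2(CPM + 0.5) in the levels, the ratios of close pairs and Dixon's criterion. For r, similar genes and the shares of genes without overlap they are edgeR's log2 CPM, with a prior of 0.5 read counts. The script was tested on simulated data. Alternatives were RLE factors, DESeq2 1.42.0, limma 3.58.1 voom, no filter, at least 1 CPM in 8 libraries, the compared groups alone, close members summed, and each library left out, for primary libraries chosen after seeing the data. Members and lists were chosen with earlier results of these data known. Named list genes were taken from the 2 with the highest mean and the 2 with the largest log2 fold change, not all of which are named. Similar genes were the 3 with the highest r and a mean log2 CPM of at least 1. Groups came from the labels, and replicate numbers follow the order of deposit and pair nothing. Identities were computed with Biopython 1.88, and exact permutation tests were two-sided.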

Additional observations from a re-analysis of the deposited data

Results flagged for a closer look

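Within groups of 4 or 8 tumors, 5 of 56 combinations of member and group held a tumor far from the others by Dixon's criterion, which chance meets in about 1 of 20. Among irradiated primary tumors given anti-PD-1, replicate 5 was far below the rest for Slfn1 (30.3 CPM) and for Slfn5 (90.2 CPM). Among unirradiated primary tumors given anti-PD-1, replicate 4 was far above the rest for Slfn4 (90.4 CPM). Replicate 3 of the irradiated transplants given anti-PD-1 was far above the rest for Slfn4 (420 CPM), and replicate 2 of the irradiated transplants given isotype far below for Slfn8 (20.2 CPM).

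In the 2 libraries that entered no comparison, Slfn9 stood at 68.9 CPM in the library labelled as the parental tumor, above the highest of 4 unirradiated isotype transplants (54.6 CPM). Slfn3 stood at 5.20 CPM in the library labelled as the cell line, above their highest of 3.94 CPM. Without replicates these differences were not tested.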

How the results depend on the processing

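No paired analysis was possible because replicate numbers follow the order of deposit and pair no samples. The count of members raised by radiation in transplants given anti-PD-1 was 3 and became 5 with DESeq2, 5 with limma voom, 5 with at least 1 CPM in 8 libraries and 1 in a fit of the compared groups alone, and it ran from 0 to 4 when a library was left out. Between models under anti-PD-1, the count of 1 at 0 Gy became 3 with DESeq2 and 0 with limma voom, without a filter and with the compared groups alone, and ran from 0 to 2 over left-out libraries. The count of 1 at 20 Gy became 2 with limma voom and 0 without a filter and with the compared groups alone, and ran from 0 to 1. The log2 fold change of Slfn3 in primary tumors given anti-PD-1, -0.04, turned to 0.033 with limma voom and ran from -0.16 to 0.38 over left-out libraries, with 4 changes of sign (0.06, 0.38, 0.13 and 0.07). The causes were not tested. Counts of radiation in primary tumors given anti-PD-1 (5 to 6), in transplants given isotype (4 to 6) and over both antibodies (5 to 6) stayed within 1.5 times, with 5 where close members were summed to 5 units. Counts of 0 for anti-PD-1, for the models under isotype and for both interactions held under every alternative run. The median r between members was 0.752 by Spearman's measure. Slfn3, at 1.19 to 14.6 CPM, was counted least, and the transplant comparisons rest on groups of 4.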
